A study of Mus musculus with 2 samples.

Results

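Keratin genes were described in cultured tracheal epithelial cells of Gprc5a knockout mice (Gprc5a-/-) and of wild-type mice (Gprc5a+/+), with 1 array per genotype. Members were all genes whose probe set carried a single platform symbol made of Krt, a number and at most 1 letter. The rule found 36 keratin genes among 14860 measured genes. Of these, 21 were type I and 15 type II, and each had 1 probe set. The donor mice of both groups were 3 weeks old and of a mixed C57 BL/6 × 129sv background. The cells of both groups were untreated and grew in serum-free keratinocyte medium (K-SFM), to which EGF was added at 5 ng/ml and an extract of bovine pituitary at 50 µg/ml. They were harvested in exponential phase, and 250 ng of total RNA was labelled for each array. The sources used here do not give the number of donor mice, the passage of the cells or the design of the deleted allele. Gprc5a encodes an orphan G protein-coupled receptor.

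Keratins build the intermediate filaments of epithelial cells. A filament needs a type I (acidic) and a type II (basic to neutral) partner, and each kind of epithelium uses its own pairs. KRT5 with KRT14 marks basal cells of stratified and pseudostratified epithelia. KRT8 with KRT18 marks simple and luminal cells. KRT6, KRT16 and KRT17 are induced in wounded or growing keratinocytes, KRT4 with KRT13 belongs to the upper layers of mucosal squamous epithelia, and KRT1 with KRT10 to the upper layers of the cornifying epidermis. In the trachea, basal cells carry KRT5 and KRT14, and the luminal secretory and ciliated cells carry KRT8 and KRT18.

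The keratin profile differed between the genotypes at Krt18 far more than at any other member. Krt18 was 88.1-fold higher in the knockout sample, a ratio to a wild-type value just above background. Krt42, a keratin described in mouse nail, was 2.77-fold lower in the knockout sample. The basal keratins Krt5 and Krt14 and the stress keratins Krt16 and Krt17 were high in both samples and differed by less than 1.5-fold. Outside the member rule, the probe sets shared by Krt6a and Krt6b disagreed. The set that lists Krt6b first was 2.63-fold higher in the knockout, and the set that lists Krt6a first was nearly level. The epidermal, inner root sheath and hair keratins were low in both samples. With 1 sample per genotype there is no error, no test and no p-value, and the differences describe these 2 arrays only.

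The promoters of 3 keratins are shown because they belong to the member with the highest difference (Krt18), the member with the lowest difference (Krt42) and a bright member with nearly the same value in both samples (Krt5). They are RefSeq sequences of build GRCm38.p6, from 250 bases before to 50 bases after the annotated start, read 5′ to 3′ on the gene's strand. Capitals mark matches to any of 4 motifs searched on both strands: TATAAA (the TATA box), GGGCGG (the GC box), TGANTCA (the AP-1 site) and CACCTG (an E-box). The printed matches do not overlap.
Krt18, chr15:102027966-102028265, plus strand: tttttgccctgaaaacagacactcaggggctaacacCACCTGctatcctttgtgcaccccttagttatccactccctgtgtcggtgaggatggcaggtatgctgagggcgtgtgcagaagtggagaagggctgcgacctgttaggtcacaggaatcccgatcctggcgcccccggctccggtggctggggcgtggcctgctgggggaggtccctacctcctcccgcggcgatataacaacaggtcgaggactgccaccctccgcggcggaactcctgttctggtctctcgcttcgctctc
Krt42, chr11:100269902-100270201, minus strand: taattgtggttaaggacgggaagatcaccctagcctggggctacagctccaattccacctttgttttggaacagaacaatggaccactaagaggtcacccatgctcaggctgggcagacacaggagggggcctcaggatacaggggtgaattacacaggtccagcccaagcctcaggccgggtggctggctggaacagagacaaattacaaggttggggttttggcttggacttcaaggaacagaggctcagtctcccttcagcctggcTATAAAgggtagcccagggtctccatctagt
Krt5, chr15:101712856-101713155, minus strand: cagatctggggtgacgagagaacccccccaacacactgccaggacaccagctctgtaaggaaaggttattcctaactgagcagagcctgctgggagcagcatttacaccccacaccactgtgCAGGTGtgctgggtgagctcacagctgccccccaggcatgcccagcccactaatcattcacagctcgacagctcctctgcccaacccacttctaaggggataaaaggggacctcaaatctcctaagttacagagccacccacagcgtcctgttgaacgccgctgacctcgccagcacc
The Krt18 window held a CACCTG match 214 bases before the start and none of the other motifs. The Krt42 window held TATAAA with its first base at position 20 after the start. The Krt5 window held the reverse complement of CACCTG 128 bases before the start. Promoters of 26 of the 36 keratins were matched in the RefSeq table, with 27 windows. TATAAA was in 13 of the 27 keratin windows (48.1%), against 13.6% of all 32851 promoter windows of the same length. GGGCGG was in 1 keratin window, against 35.7% of all windows. CACCTG was in 10 keratin windows, against 20.2% of all windows, and TGANTCA was in 2, against 7.81%. A match describes letters in a window, not a bound site or a working TATA box. Inexact forms of a motif were not searched, so a window without a match may still hold such a form.

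The arrays were compared on the deposited log2 scale, with each difference taken as knockout minus wild type. The column medians over 23332 probe sets were 6.04 for the knockout and 5.98 for the wild type. Probe values are not comparable between genes, so each gene was set only against itself and against fixed levels. The level filter of 6.76 is the median of all probe sets with a listed gene. The background level of 5.05 is the 95th percentile of 799 olfactory and vomeronasal receptor genes, which stand for unexpressed genes. Gprc5a itself was at 4.05 in the knockout sample, below background, and at 9.49 in the wild-type sample. The epithelial markers Epcam and Cdh1 were at 11.89 and 12.25 in the knockout sample, against 12.30 and 12.19 in the wild-type sample. Of 5 markers fixed for basal cells, Trp63, Krt5, Krt14 and Itga6 were above the level filter in both samples, and the nerve growth factor receptor gene Ngfr was below it at 5.66 in the knockout and 5.98 in the wild type.

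Of the 36 keratins, 8 passed the level filter in at least 1 sample. In 12 the higher value lay between background and the filter, and 16 were at or below background in both samples. Over all 14860 genes the same counts were 7943, 2385 and 4532. Krt18 was the single member at least 2-fold higher in the knockout (2.78% of members), against 3.34% of all 14860 genes. Krt42 was the single member at least 2-fold lower (2.78% of members), against 2.11% of all genes. Of the 8 members that passed the level filter, 1 was higher and 1 lower by 2-fold, against 4.62% and 2.97% of the 7943 genes that passed. At 1.5-fold, 2 of the 8 were higher (Krt18 and Krt15) and 2 of the 8 lower (Krt42 and Krt13), against 11.0% and 7.70% of the genes that passed. Krt18 and Krt42 passed by 1 sample only, which favours members that differ, and counts over 8 members are a description. The Krt18 difference was the second highest of all 14860. The differences of 30 of the 36 keratins (83.3%) stayed within 0.5 on the log2 scale, against 81.8% of all genes. Of the 8 that passed the filter 4 did (50.0%), against 76.7% of all genes that passed. The median difference of all keratins was -0.08, against -0.03 for all genes. Of the members, 14 had a higher and 22 a lower knockout value, against 6835 and 8023 of all 14860 genes.

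**Figure D1:**
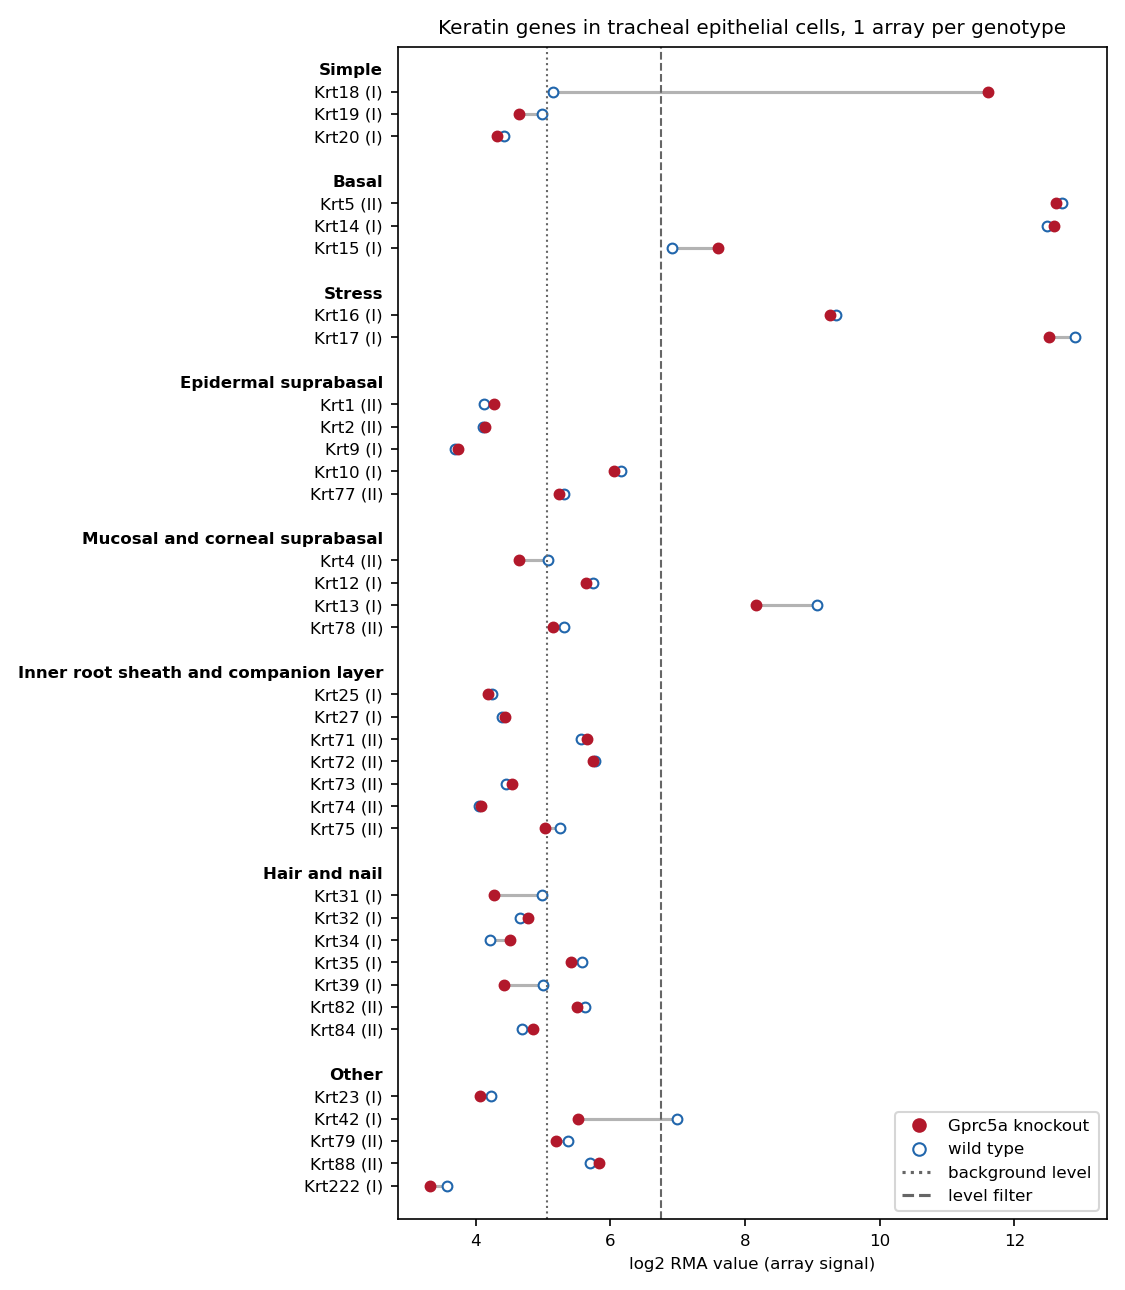
The log2 value of each of the 36 keratins (x axis) in the Gprc5a knockout array (filled red) and the wild-type array (open blue), by group, with the type in brackets after the symbol. The dotted line is the background level of 5.05 and the dashed line the level filter of 6.76; Krt18 was at 11.61 in the knockout and 5.15 in the wild type, and most other pairs of points nearly touch.

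Simple keratins were split. Krt18, the type I partner of KRT8 in simple epithelia, had a log2 value of 11.61 in the knockout sample and 5.15 in the wild-type sample, a difference of 6.46. The wild-type value lay just above background and the knockout value far above the level filter, so the member passed the filter by its knockout value only. Krt19, a type I keratin of luminal and ductal cells, was at 4.65 in the knockout and 4.98 in the wild type. Krt20, a type I keratin of intestinal and urothelial surface cells, was at 4.31 in the knockout and 4.42 in the wild type. Both were below background in both samples, so the Krt18 difference was not shared by the other simple type I keratins on the array. The median of the 3 simple keratins was -0.11 and does not show the Krt18 difference.

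The type II side of the simple pair could be followed only in part. Krt8, the partner of KRT18, was not analysed here because no listed probe set names it. Krt7, a type II keratin of simple and glandular epithelia, lay on a probe set that it shares with the hair keratin gene Krt86. That probe set was at 9.09 in the knockout and 8.33 in the wild type, a difference of 0.76 or 1.70-fold. Which of the genes gave the signal cannot be told apart, and the rule for members leaves such probe sets out.

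Markers of other airway cell types were measured beside Krt18, since luminal cells of the trachea carry this keratin. Measured markers of club, ciliated, goblet, fibroblast, smooth muscle, endothelial, immune, mesothelial and thyroid cells numbered 20. Of these, 3 passed the level filter, against 7943 of all 14860 genes. At least 2-fold higher in the knockout were 2 of the 20, and none was 2-fold lower, against 3.34% and 2.11% of all genes. The club cell gene Cyp2f2 was at 9.63 in the knockout and 6.48 in the wild type. The ciliated cell regulator Foxj1 was at 8.97 in the knockout and 6.22 in the wild type. Cyp2f2 and Foxj1 passed the filter by their knockout values only, which favours genes that differ. The mesothelial marker Msln was at 10.81 in the knockout and 10.08 in the wild type. The medians of the 20 markers were 4.85 in the knockout and 5.05 in the wild type, with ranges of 2.30 to 10.81 in the knockout and 2.35 to 10.08 in the wild type. The club cell secretory gene Scgb1a1 was at 2.30 in the knockout and 2.35 in the wild type, and the cilium motor gene Dnah5 at 3.63 in the knockout and 3.69 in the wild type, both below background. The other mesothelial marker, Upk3b, was at 4.73 in the knockout and 5.07 in the wild type. The part of these cell types in the Krt18 difference was not tested. In bulk RNA, a change in the number of cells of a type and a change of RNA per cell cannot be told apart.

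Basal keratins were at high values in both samples. Krt5, the type II basal keratin, was at 12.62 in the knockout and 12.71 in the wild type, and its partner Krt14 was at 12.59 in the knockout and 12.49 in the wild type. The partners differed by -0.08 and 0.10, so this pair was nearly level. Krt15, a type I keratin of basal cells that is not part of a fixed pair, was at 7.60 in the knockout and 6.91 in the wild type, a difference of 0.69 or 1.61-fold. It passed the level filter in both samples and was the second highest difference among the members.

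Of the stress keratins with probe sets of their own, Krt16 was nearly level and Krt17 was slightly lower in the knockout sample. Krt16 was at 9.27 in the knockout and 9.35 in the wild type, a difference of -0.08. Krt17 was at 12.51 in the knockout and 12.90 in the wild type, a difference of -0.39 or 1.31-fold. The type II stress keratins Krt6a and Krt6b are near-identical and share 2 probe sets. The probe set that lists Krt6b first was at 11.59 in the knockout and 10.20 in the wild type, 2.63-fold higher, while the one that lists Krt6a first was at 12.01 in the knockout and 12.03 in the wild type. The probe sets thus disagreed, and the values cannot be assigned to either gene. Probe sets that list Krt6b with the predicted genes Gm5414 and Gm5478 differed by less than 0.03, but both were low. The Gm5414 set was at 4.68 in both samples, below background. The Gm5478 set was at 5.95 in the knockout and 5.92 in the wild type, below the level filter.

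**Figure D2:**
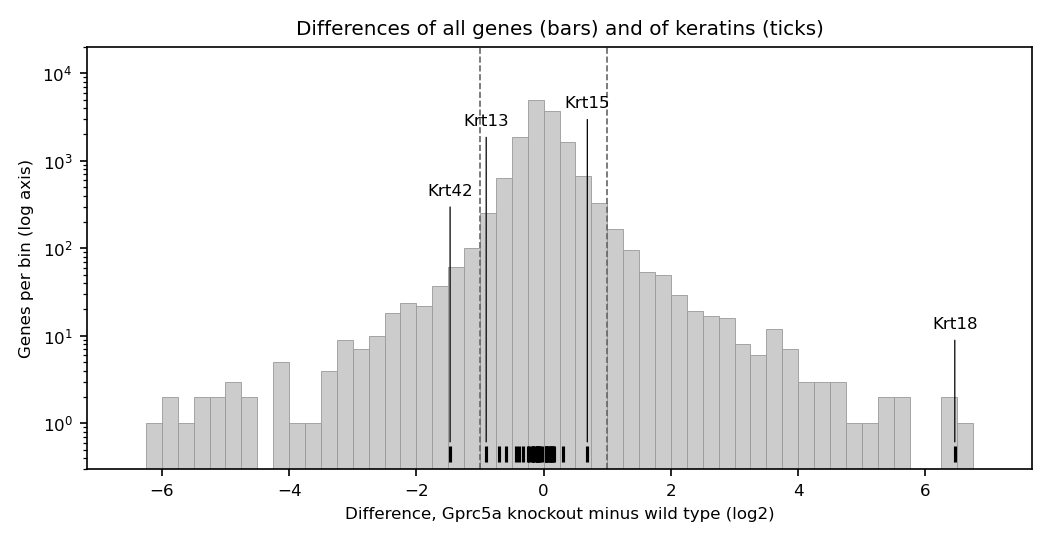
Differences between the Gprc5a knockout and the wild-type array (x axis, log2) for all 14860 genes as bars of genes per bin (y axis, log scale), with the 36 keratins as ticks at the foot and 2-fold as dashed lines. Krt18 at 6.46 and Krt42 at -1.47 are the members outside the dashed lines, and Krt13 at -0.90 and Krt15 at 0.69 lie inside them.

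Of 4 suprabasal keratins of mucosal and corneal epithelia, Krt13 was the single member above the level filter, and it was lower in the knockout sample by less than 2-fold. Krt13, the type I keratin of mucosal squamous epithelia, was at 8.17 in the knockout and 9.07 in the wild type, a difference of -0.90 or 1.87-fold. Its type II partner Krt4 was at 4.65 in the knockout, below background, and at 5.08 in the wild type, just above it. The difference of Krt4 was -0.43, and -0.03 with the knockout value raised to background, so only Krt13 of this pair was measured well above background. The corneal keratin Krt12 was at 5.64 in the knockout and 5.74 in the wild type, and Krt78 at 5.15 in the knockout and 5.31 in the wild type. All 4 members of the group had a lower knockout value, with a median of -0.30, as did 8023 of all 14860 genes, whose median was -0.03.

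Cornifying keratins of the epidermis were low in both samples. Krt1 was at 4.27 in the knockout and 4.13 in the wild type, and its partner Krt10 at 6.05 in the knockout and 6.16 in the wild type. Krt2, a late type II keratin of the epidermis, was at 4.14 in the knockout and 4.10 in the wild type. Krt9, the keratin of palm and sole skin, was at 3.74 in the knockout and 3.69 in the wild type, and Krt77 at 5.24 in the knockout and 5.31 in the wild type. None of the 5 passed the level filter, and their differences lay between -0.11 and 0.14.

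The members grouped here as keratins of the hair follicle, hair shaft and nail were also low. Krt42, described in mouse nail, was grouped with the remaining members and passed the level filter in the wild type. The 7 members of the inner root sheath and companion layer (Krt25, Krt27, Krt71, Krt72, Krt73, Krt74 and Krt75) ran from 4.08 to 5.75 in the knockout and from 4.05 to 5.77 in the wild type, with differences between -0.23 and 0.09. Krt74 is annotated in RefSeq as a transcribed pseudogene. The 7 hair and nail keratins (Krt31, Krt32, Krt34, Krt35, Krt39, Krt82 and Krt84) ran from 4.27 to 5.50 in the knockout and from 4.21 to 5.62 in the wild type. Krt31 and Krt39 had the lowest differences of these, -0.70 and -0.59, and both were below background in both samples, where a ratio has little meaning.

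Among the remaining members, Krt42 stood apart. It was at 5.52 in the knockout, between background and the level filter, and at 6.99 in the wild type, a difference of -1.47. It passed the filter by its wild-type value only, and 157 of the 14860 genes had a lower difference. Krt42 lies beside Krt17 and Krt16 on chromosome 11 and is a close paralog of Krt17. Whether its probes tell Krt42 and Krt17 apart was not tested. Krt23, Krt79, Krt88 and Krt222 were below the level filter in both samples and had differences between -0.25 and 0.13.

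The pairs of partners were set side by side. Of 7 textbook pairs, 3 had both partners on probe sets of their own. Krt5 with Krt14 differed by -0.08 and 0.10, Krt1 with Krt10 by 0.14 and -0.11, and Krt4 with Krt13 by -0.43 and -0.90. Of these, Krt5 with Krt14 is the pair with both partners above the level filter. The partners of Krt18, Krt19, Krt16 and Krt17 were on shared probe sets or not analysed here. By type, the 21 type I members had differences from -1.47 to 6.46, and the 15 type II members from -0.43 to 0.16. Of the members above the level filter 7 were type I, and Krt5 was type II. The bright probe sets of Krt6a, Krt6b and Krt7 were shared and are not among these counts.

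The measured neighbours of Krt18 on the chromosome did not share its difference, but most of them were below the level filter. Mouse type I keratin genes cluster on chromosome 11 and type II genes on chromosome 15, and Krt18 is the type I gene that lies at the edge of the type II cluster, next to Krt8. On the array 20 members were on chromosome 11 and 16 on chromosome 15. The 5 measured genes before Krt18 were Krt1, Krt77, Krt4, Krt79 and Krt78, and the 5 after it were Eif4b, Tns2, Igfbp6, Csad and Zfp740. The differences of these 10 genes lay between -0.43 and 0.64, and the median of their absolute differences was 0.14, against 0.20 for all genes. Of the 10, only Tns2, Csad and Zfp740 passed the level filter. Low values leave little room for a fall, but they do not limit a rise. Krt18 itself was at 5.15 in the wild type. Krt8, next to Krt18, had no listed probe set, so whether it shared the difference was not tested. Eif4b, a translation initiation factor gene, had the highest of them, at 4.71 in the knockout and 4.07 in the wild type, both below background. On chromosome 11 Krt42 had the lowest difference, and its neighbour Krt17 differed by -0.39.

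**Figure D3:**
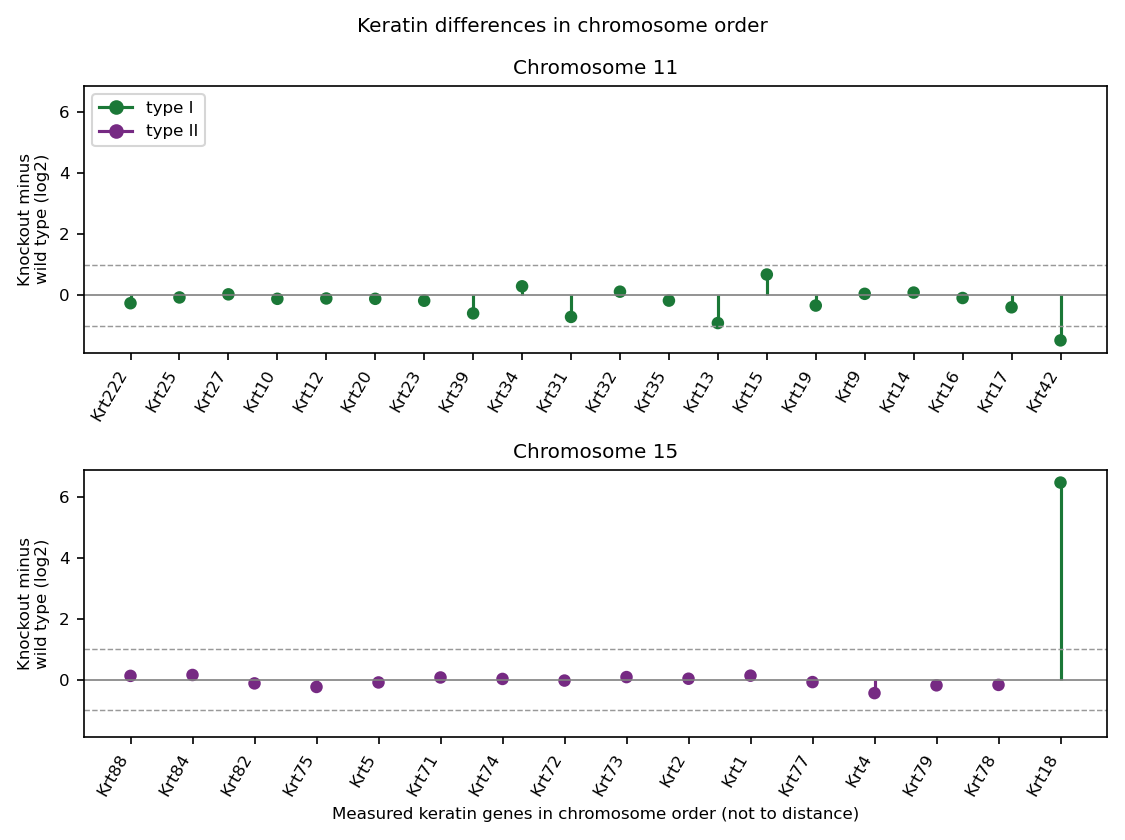
Differences between the Gprc5a knockout and the wild-type array (y axis, log2) for the measured keratins in chromosome order (x axis, equal spacing), green for type I and purple for type II, with dashed lines at 2-fold. Krt18 stands at 6.46 at the end of the chromosome 15 cluster, and its keratin neighbours Krt78 and Krt79 are at -0.16 and -0.18. Both neighbours are below the level filter in both arrays.

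The other intermediate filament genes were compared with the keratins. Of 14 measured genes, 4 passed the level filter. None reached 2-fold in the upward direction, against 3.34% of all genes, and 2 were lower by 2-fold or more in the knockout sample, against 2.11% of all genes. Vim, the vimentin gene of mesenchymal cells, was at 5.45 in the knockout and 7.69 in the wild type. Ina, encoding the neuronal filament protein alpha-internexin, was at 4.96 in the knockout, below background, and at 9.60 in the wild type. The lamin genes Lmna and Lmnb2 differed by -0.10 and 0.05, and the list's median was -0.06, against -0.03 for all genes. Vim and Ina thus differed in the opposite direction to Krt18. Both passed the filter by their wild-type values only, which favours genes that differ. Of the 14 genes, 5 had a higher knockout value, up to 0.33 for Nefh, a neurofilament gene below the level filter.

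Genes that anchor or organise keratin filaments stayed within 2-fold. Of 15 measured genes, 14 passed the level filter, none was at least 2-fold higher or lower, against 4.62% and 2.97% of all genes that passed, and the median difference was -0.07. Shares of this size give few calls among 14 genes, so nothing is read from their absence. Ppl, encoding the cornified envelope linker periplakin, was at 9.58 in the knockout and 8.75 in the wild type, a difference of 0.82. The desmosomal plaque genes Pkp2 and Jup differed by 0.53 and -0.25, and Pkp4, a related junction gene, by -0.51. The hemidesmosome genes Col17a1, Itgb4 and Itga6, which hold KRT5 and KRT14 filaments to the basement membrane through plectin, were above the level filter in both samples and differed by -0.08, -0.03 and -0.18.

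Known regulators of keratin genes and of epithelial differentiation differed in both directions. Of 26 measured genes, 20 passed the level filter. Of those 20, 2 were at least 2-fold higher and none at least 2-fold lower, against 4.62% and 2.97% of all genes that passed. Without the filter, 2 of the 26 were higher and 1 lower by 2-fold, against 3.34% and 2.11% of all genes. Counts this small are a description. The median over all 26 was -0.07. Notch1, the receptor that moves basal cells towards differentiation, was at 10.53 in the knockout and 9.27 in the wild type. Elf3, an epithelial ETS factor, was at 8.45 in the knockout and 7.28 in the wild type, and its relative Ehf differed by 0.73. Ovol1, a repressor that acts in differentiating epidermis, was at 6.33 in the knockout and 7.12 in the wild type. It passed the filter by its wild-type value only. Lef1, a WNT pathway factor of the hair follicle that did not pass the filter, was at 5.25 in the knockout and 6.57 in the wild type. Trp63, the basal cell master regulator and an activator of Krt5 and Krt14, was at 10.76 in the knockout and 10.95 in the wild type, a difference of -0.19.

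**Figure D4:**
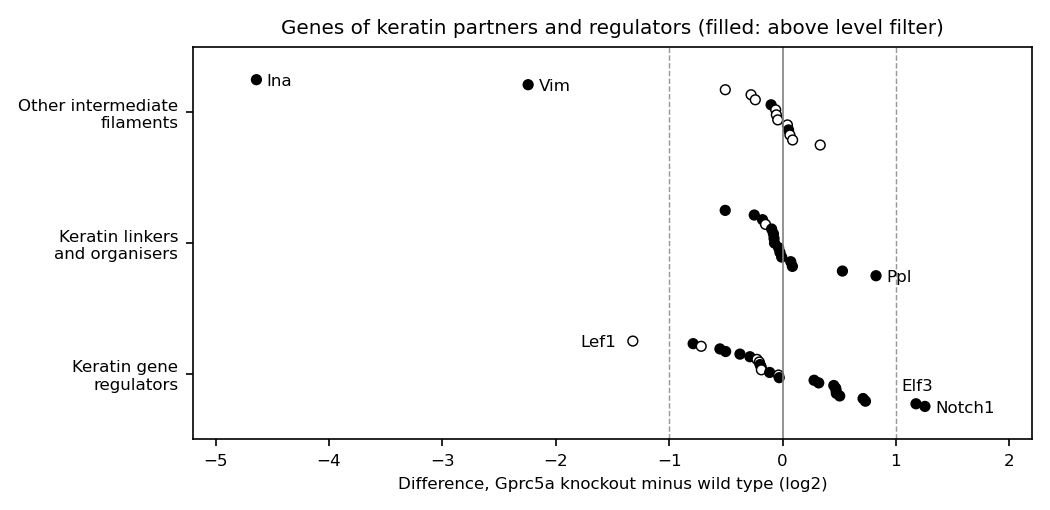
Differences between the Gprc5a knockout and the wild-type array (x axis, log2) for 14 other intermediate filament genes, 15 keratin linkers and 26 keratin gene regulators, each point a gene, filled where it passed the level filter, with dashed lines at 2-fold. Ina and Vim lie far to the left, and Lef1, unfilled, lies past 2-fold on that side. Notch1 and Elf3 lie past 2-fold on the right, and no linker reaches either line.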

How the data were processed

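The deposited table holds log2 values per probe set, made by the authors with RMA in Affymetrix Expression Console, per the submitters' processing notes, which name no versions. The sources used here do not give the filters, the genome build or whether the 2 arrays were normalized together. Sorted, the columns are within 0.17 of each other, so these values cannot show a change in total RNA. Detection calls were not used here, and having 1 array per group limits the precision.

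Of 23332 probe sets, 16015 had listed genes and 14996 a single symbol. For genes with several probe sets the one with the highest mean was taken, giving 14860 genes. RefSeq lists 54 keratin genes; 36 had a probe set of their own, 10 shared one and 8 (Krt8, Krt24, Krt26, Krt28, Krt33b, Krt36, Krt40 and Krt76) had no listed probe set. Genes were counted at 2-fold, with a filter on the higher value. Every keratin could be named. Of each companion list, up to 4 members above the filter with the largest absolute difference were named; further genes were chosen after their values were seen. Members and lists were chosen with earlier results of these data known, and Krt88 was classed after the values were seen. Protein sequences and identities between keratins were planned and are not analysed here. The counting was tested on simulated data. Analyses used Python 3.11.15, pandas 2.3.3 and matplotlib 3.10.9.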

Additional observations from a re-analysis of the deposited data

How the results depend on the processing

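The counts of 1 keratin at least 2-fold higher and 1 at least 2-fold lower held without the level filter and with it at background. They were also the same with differences centred on the median of all genes and with quantile-normalized columns. The mean of a gene's probe sets and low values raised to background gave the same counts but could not change them. Each keratin has 1 probe set, and both values of Krt18 and Krt42 were above background. At a 1.5-fold threshold 2 keratins were higher (Krt18 and Krt15) and 2 lower (Krt42 and Krt13). Counting probe sets shared by keratins as well, an alternative chosen after seeing the data, gave 2 higher and 1 lower. The 8 members above the filter moved by at most 0.11 under the alternatives for single genes. Of these alternatives, only centring and quantile normalization could move them. The median of all keratins ran from -0.10 to 0.0, that of keratins above the filter from -0.11 to -0.06, of simple keratins from -0.11 to 0.0, of basal keratins from 0.05 to 0.12 and of stress keratins from -0.29 to -0.21. With 1 array per genotype no sample could be left out. No paired analysis was possible because each group has 1 sample and no result comes from a test. Signal over background limits 28 of the 36 keratins, whose values did not pass the level filter.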

Other observations

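Keratin-associated protein genes, which encode the matrix of the hair shaft, were looked at after the values were seen. All 18 measured Krtap genes were below background in both samples, from 2.16 to 4.995 in the knockout and from 1.97 to 4.57 in the wild type. The keratinocyte-associated protein genes Krtcap2 and Krtcap3, named for keratinocytes and not parts of filaments, passed the level filter and were at 10.78 and 9.64 in the knockout, against 10.97 and 9.55 in the wild type. The shared probe set of Krt90, Krt80 and Krt83 was at 6.38 in the knockout and 6.61 in the wild type, that of Krt87, Krt81 and Krt83 at 5.39 in the knockout and 5.56 in the wild type, and that of Krt33a and Krtap17-1 at 4.60 in the knockout and 4.63 in the wild type.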
